A study of Rattus norvegicus with 6 samples.

Results

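TNF-α acts on cells through receptors of the TNF receptor superfamily and the adaptors that bind their cytoplasmic tails. 10 genes of this superfamily and of its signalling proteins were followed here. The receptor genes were Tnfrsf1a and Tnfrsf1b, for TNF-α itself, Tnfrsf12a and Fas, for other ligands, and Tnfrsf11b, for a soluble decoy receptor of other ligands. The remaining members were the adaptors Tradd, Traf1 and Traf2, the kinase gene Ripk1 and the caspase gene Casp8. All 10 were taken by gene symbol from a table of 18420 genes. Each of the 10 was present and was among the 13250 genes tested. The RNA came from cultured primary chondrocytes of wild-type male Sprague-Dawley rats of 180 to 220 g, used at the third passage. The 3 libraries of the TNF-α group came from cells exposed for 6 h to TNF-α at 10 ng/mL, and the 3 of the TNF-α+NFL group from cells given this same exposure and then Nanofat lysate (NFL), the freeze–thaw extract of adipose stromal vascular cells, for another 24 h. The groups were thus harvested at 6 h and 30 h, so an effect of NFL and one of the later harvest cannot be told apart. Cells without TNF-α were not analysed here. The study describes the libraries of a group as independent biological replicates, without saying whether these were separate animals or cultures, so each p measures the spread between these libraries.

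On ligand binding, TNFR1, the product of Tnfrsf1a, recruits TRADD through paired death domains, and TRADD brings in TRAF2 and RIPK1 to a membrane complex that turns on NF-κB and MAP kinases. A later cytoplasmic complex with FADD and caspase 8 can lead to apoptosis, which cFLIP, the product of Cflar, restrains. TNFR2, the product of Tnfrsf1b, lacks a death domain and binds TRAF proteins directly, and in cartilage TNF-α is known to drive matrix breakdown largely through TNFR1. Osteoprotegerin, the product of Tnfrsf11b, is secreted, has no membrane anchor and binds the ligands RANKL and TRAIL.

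Each library held 19344893 to 19725135 estimated counts. The libraries at the ends of the first principal component were TNF-α replicates 1 and 3, with the TNF-α+NFL libraries between them, so this component did not separate the groups. Correlations of log2 normalized counts were 0.986 to 0.989 within TNF-α, 0.991 to 0.992 within TNF-α+NFL and 0.988 to 0.990 between the groups. A single gene, Fn1, took 4.46% of the counts in TNF-α replicate 1 against 3.41% to 3.59% in the other 5 libraries. Directions below follow the deposited sample labels. The column headings of the study's supplementary gene list imply the reverse assignment of the groups, and which is right was not settled here. With the groups exchanged every sign below would turn, and Tnfrsf11b would be 0.814-fold (95% interval 0.76 to 0.871). Of the cartilage genes, Col2a1 was, by the labels, at 7.10 to 8.16 TPM with TNF-α and 8.68 to 9.54 TPM with NFL. Sox9 was at 3.93 to 5.06 and 4.19 to 5.07 TPM, and Acan at 4.47 to 5.93 and 5.07 to 6.12 TPM. Col2a1 was thus separated and higher with NFL while Sox9 and Acan overlapped. Col9a1, at 0.73 to 0.79 and 0.91 to 1.10 TPM, and Col11a1 were also separated and higher. Hapln1, at 6.92 to 8.28 and 6.80 to 7.16 TPM, overlapped and leaned lower with NFL. So did Sox5, at 6.92 to 8.02 and 6.25 to 7.40 TPM. The bearing of these genes on the assignment was not tested. Of 18 chondrocyte markers 16 were above 3 counts in every library, and Matn1 was at or under 3 counts in every library. Summed over the 18 chondrocyte markers, TPM was 498 to 561 in the TNF-α libraries and 594 to 627 in the TNF-α+NFL libraries, most of it Col11a1, at 404 to 533 TPM. The 10 fibroblast markers summed to 5800.27 to 6430.05 TPM and 6361 to 6492 TPM, in that order. The leukocyte list, with 10 of 12 markers listed, summed to 105.5 to 119.5 TPM and 99.1 to 102 TPM, nearly all from Cd68 and Cd14, while its defining marker Ptprc, the gene of CD45, had 0 to 7 counts per library. The endothelial list (7 of 8 markers listed) summed to at most 1.69 TPM and the blood list (6 of 8) to at most 0.96 TPM, and the adipocyte list (7 of 7) summed to 33.4 to 34.9 TPM and 34.8 to 40.4 TPM with Adipoq at 0 to 4 counts. The summed chondrocyte and leukocyte lists therefore moved with the groups. The adipocyte sums overlapped narrowly, while the main gene of that list, Fabp4, was separated, at 30.10 to 30.76 TPM and 31.33 to 35.35 TPM. The part of these lists in the results below was not tested. In bulk RNA, fewer cells of a type and less RNA per cell cannot be told apart.

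Levels were compared between genes as TPM, which are scaled for transcript length. Tnfrsf12a, which encodes the TWEAK receptor Fn14, had the highest level of the 10 genes, at 277.5 to 298 TPM over the 6 libraries. Tnfrsf1a followed at 157 to 169.9 TPM, Tnfrsf11b at 99.4 to 133 TPM and Fas, the receptor gene for Fas ligand, at 63.2 to 68.9 TPM. These 4 genes did not overlap with each other in range, and each exceeded between 81.6% and 95.8% of the tested genes. The intracellular members lay lower. Tradd at 31.1 to 36.3 TPM and Traf1 at 30.1 to 33.6 TPM overlapped, as did Traf2 at 18.8 to 22.7 TPM and Ripk1 at 18.96 to 20.8 TPM. Tnfrsf1b was at 12.6 to 15.7 TPM and Casp8, the initiator caspase of the death-receptor pathway, at 10.1 to 11.7 TPM, both below the median of 17.3 TPM over the tested genes. Tnfrsf1b was thus the lowest of the 5 receptor genes, and in each library the Tnfrsf12a level was 23.7 to 29.4 times that of Casp8.

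**Figure D1:**
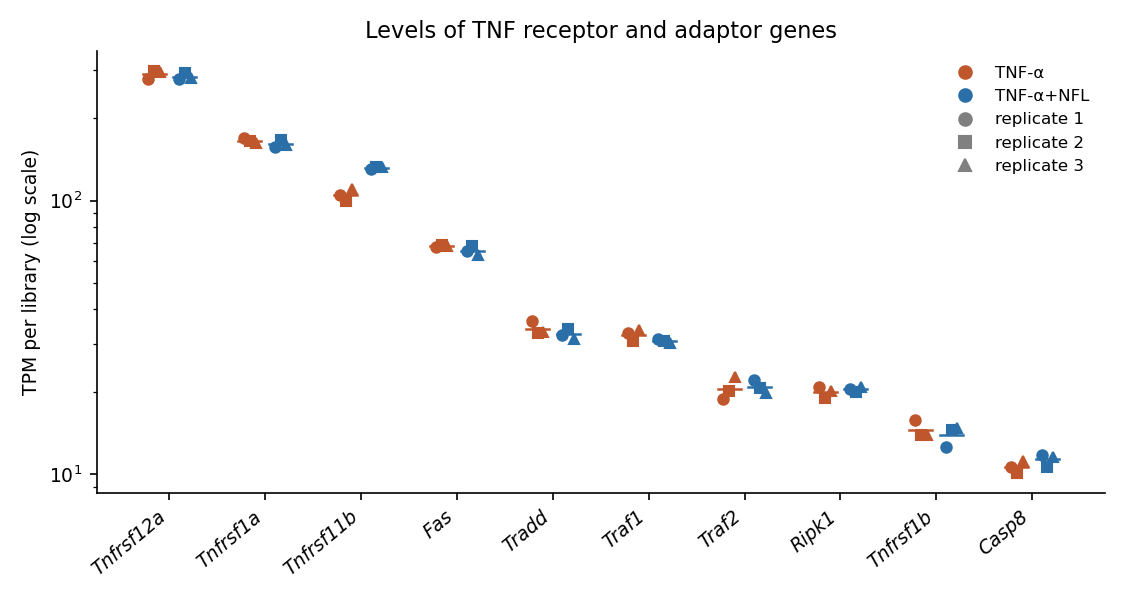
TPM (log scale) of each of the 10 genes in the 3 TNF-α (orange) and 3 TNF-α+NFL (blue) libraries, with bars at the group means and marker shapes for replicates 1 to 3. The membrane receptors Tnfrsf12a, Tnfrsf1a and Fas and the decoy Tnfrsf11b lie above the intracellular members, and Tnfrsf11b is the gene whose groups stand visibly apart, at 99.4 to 110.4 TPM against 130.2 to 133 TPM.

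The decoy receptor gene was the member that changed. Normalized counts (CPM, estimated counts scaled to a common library size with TMM factors) of Tnfrsf11b (Entrez gene 25341) were 147, 144 and 161 in TNF-α replicates 1, 2 and 3, and 183, 185 and 187 in TNF-α+NFL replicates 1, 2 and 3. All 3 libraries labelled TNF-α+NFL lay above all 3 labelled TNF-α, and TNF-α replicate 3 came nearest to them. The means were 150.5 ± 9.32 (SD, n = 3) and 185 ± 1.82 (SD, n = 3), a 1.23-fold higher level (95% interval 1.15 to 1.32). On the log2 scale the change was 0.30 with a standard error of 0.046 and an adjusted p of 0.0102 (quasi-likelihood test of edgeR, Benjamini-Hochberg adjustment over 13250 genes). By p it ranked 25 among the tested genes, of which 0.408% were called higher at an adjusted p under 0.05. The exact permutation p was 0.10 (two-sided), the smallest that 3 libraries against 3 allow. The spread was larger in the TNF-α group, with a coefficient of variation of 6.19% against 0.985%.

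Leaving out 1 library at a time ended the call on Tnfrsf11b in 4 of the 6 fits. The log2 fold change was between 0.27 and 0.35 in all 6. Dropping TNF-α replicate 1 or 3 gave an adjusted p of 0.000368 or 0.0043 by edgeR's test, whereas dropping TNF-α replicate 2 gave 0.11 and dropping TNF-α+NFL replicates 1, 2 and 3 gave 0.0948, 0.101 and 0.0964. Over the 16 alternatives it ran from 1.44e-05, with the DESeq2 Wald test, to 0.11. The estimated counts of Tnfrsf11b were not whole in 6 of 6 libraries, so part of its reads was divided by the authors' estimate between this and other transcripts.

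**Figure D2:**
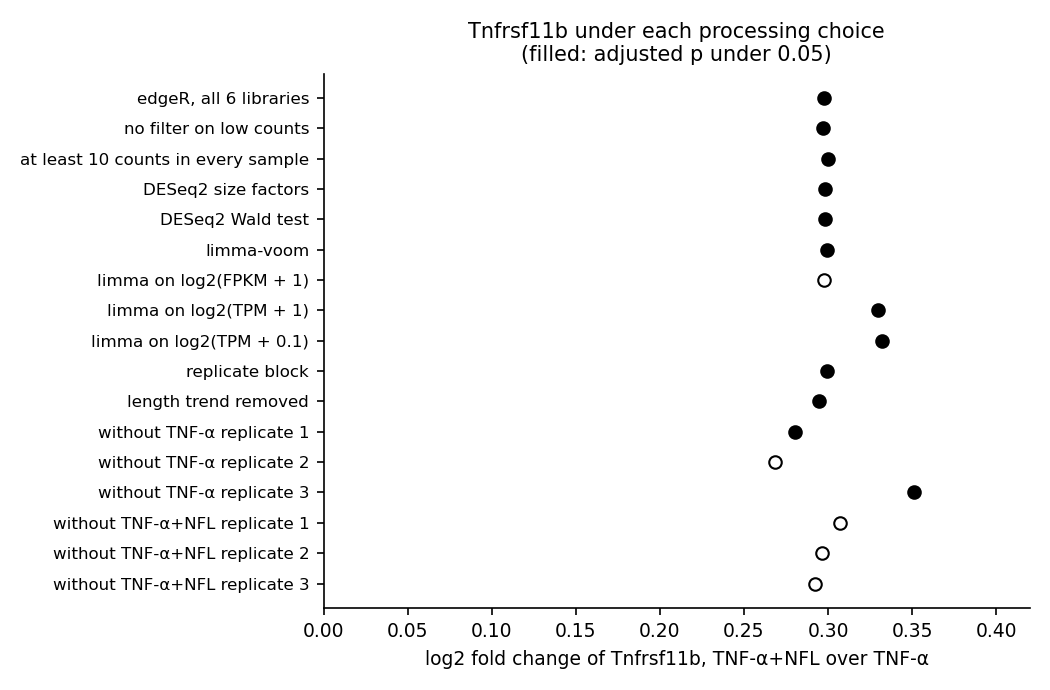
Log2 fold change of Tnfrsf11b, TNF-α+NFL over TNF-α, under each processing choice. Filled points have an adjusted p under 0.05 and open points do not. Each of the 17 estimates lies between 0.27 and 0.35, and the open points are the test on FPKM and 4 of the 6 fits that left out a library.

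Osteoprotegerin shares its ligands with signalling receptors. Of the genes on that axis, Tnfrsf11a, which encodes the signalling receptor RANK, had 0 to 2 estimated counts per library and Tnfsf10, which encodes TRAIL, had 2 to 6.27. Both were too low to test. Tnfsf11, the RANKL gene, was not analysed here.

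None of the 4 membrane receptor genes passed the test. Tnfrsf1a (Entrez gene 25625) was at 181, 182 and 181 CPM in TNF-α replicates 1, 2 and 3 and at 169, 178 and 172 CPM in TNF-α+NFL replicates 1, 2 and 3. All 3 TNF-α+NFL libraries lay below the TNF-α libraries, by a small margin. The log2 fold change was -0.070 (95% interval -0.15 to 0.012, adjusted p = 0.544 by edgeR's test), and the lower end of the interval corresponds to 0.90-fold. Its coefficient of variation in the TNF-α group, 0.353%, was under the 1.70% that counting error alone gives at its depth.

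Fas (Entrez gene 246097), whose product carries a death domain and recruits FADD, was at 86.7, 91.2 and 91.3 CPM in the TNF-α libraries and 83.8, 86.8 and 81.5 CPM in the TNF-α+NFL libraries, in replicate order. TNF-α replicate 1 and TNF-α+NFL replicate 2 overlapped and the other libraries did not. The log2 fold change was -0.095 (95% interval -0.19 to 0.00065, adjusted p = 0.456 by edgeR's test). Tnfrsf12a (Entrez gene 302965) was at 131, 145 and 145 CPM against 131, 137 and 134 CPM, with TNF-α replicate 1 just under the TNF-α+NFL libraries and the other 2 TNF-α libraries above them. Its log2 fold change was -0.069 (95% interval -0.17 to 0.032, adjusted p = 0.652). Without TNF-α replicate 1 it was -0.12 with an adjusted p of 0.0527, in a range from 0.0527 to 0.96 over its alternatives. Without TNF-α replicate 2 or 3 the log2 fold change of Tnfrsf12a was -0.041 or -0.042, and with the length trend removed it was -0.0094. Tnfrsf1b (Entrez gene 156767) was at 22.9, 20.8 and 21.1 CPM against 18.3, 21.0 and 21.6 CPM, with overlapping groups and a log2 fold change of -0.088 (95% interval -0.25 to 0.073, adjusted p = 0.737). Its log2 fold change was -0.017 without TNF-α+NFL replicate 1 and -0.13 without TNF-α+NFL replicate 3.

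**Figure D3:**
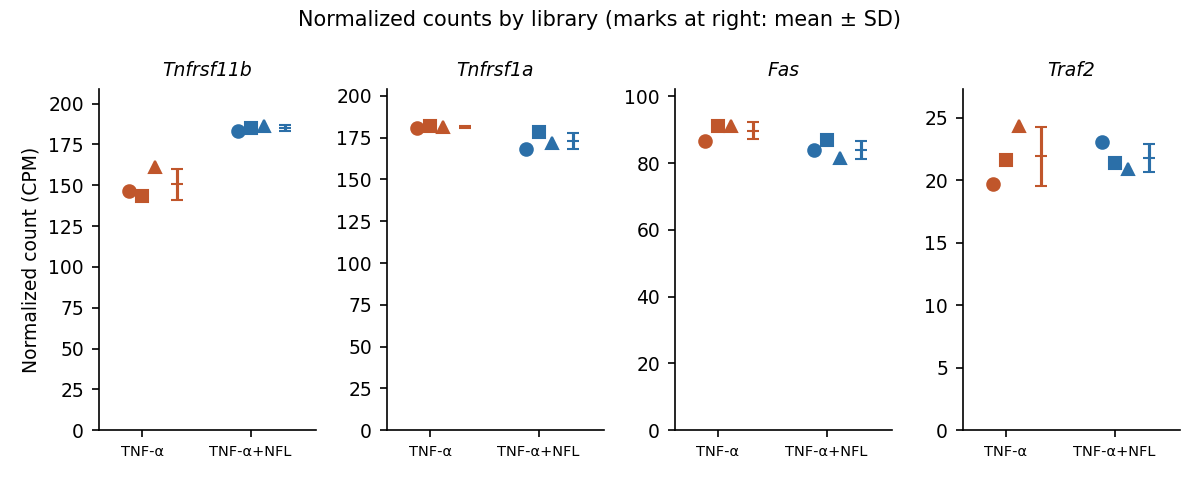
Normalized counts (CPM, axes from 0) by library for Tnfrsf11b, Tnfrsf1a, Fas and Traf2, with circles, squares and triangles for replicates 1, 2 and 3 and mean ± SD beside each group of 3. Tnfrsf11b separates by group, Tnfrsf1a by a small margin, and Fas and Traf2 overlap.

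None of the 3 adaptor genes passed the test. Tradd (Entrez gene 246756), the death-domain adaptor of TNFR1, was at 24.5, 23.1 and 23.5 CPM in TNF-α replicates 1, 2 and 3 and 21.9, 22.8 and 21.3 CPM in TNF-α+NFL replicates 1, 2 and 3. The TNF-α+NFL libraries all lay lower, with a log2 fold change of -0.11 (95% interval -0.24 to 0.021, adjusted p = 0.558 by edgeR's test). Traf1 (Entrez gene 687813), an adaptor that NF-κB is known to induce, was at 34.0, 33.2 and 36.5 CPM against 32.7, 33.1 and 31.3 CPM. Its groups also did not overlap, by the narrow gap between 33.1 and 33.2 CPM, and the log2 fold change was -0.095 (95% interval -0.22 to 0.026, adjusted p = 0.579). Traf2 (Entrez gene 311786), which brings the ubiquitin ligases cIAP1 and cIAP2 to the receptor, was at 19.7, 21.6 and 24.4 CPM against 23.0, 21.4 and 20.9 CPM. The TNF-α libraries of Traf2 spanned those of the other group, with a coefficient of variation of 10.7% where counting error alone gives 4.84%. The log2 fold change was -0.0096 (95% interval -0.18 to 0.16, adjusted p = 0.981), and its sign turned in 6 of the 16 alternatives.

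Ripk1 (Entrez gene 306886), the kinase on which survival and death signals of TNFR1 diverge, was at 47.5, 44.8 and 47.7 CPM in the TNF-α group and 46.9, 45.2 and 47.8 CPM in the TNF-α+NFL group. The replicates interleaved, with a log2 fold change of 0.00019 (95% interval -0.11 to 0.11, adjusted p = 0.999 by edgeR's test), an interval of 0.93-fold to 1.08-fold. The sign turned in 5 of the 16 alternatives. Casp8 (Entrez gene 64044) was at 12.4, 12.6 and 13.6 CPM against 13.9, 12.4 and 13.6 CPM, with overlapping groups and a log2 fold change of 0.048 (95% interval -0.12 to 0.22, adjusted p = 0.889). For Casp8 the log2 fold change was 0.018 without TNF-α+NFL replicate 1 and 0.095 without TNF-α+NFL replicate 2. As with Tnfrsf11b, the estimated counts of Ripk1 and Casp8 were not whole in 6 of 6 libraries, while those of the other 7 members were whole in all 6.

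**Figure D4:**
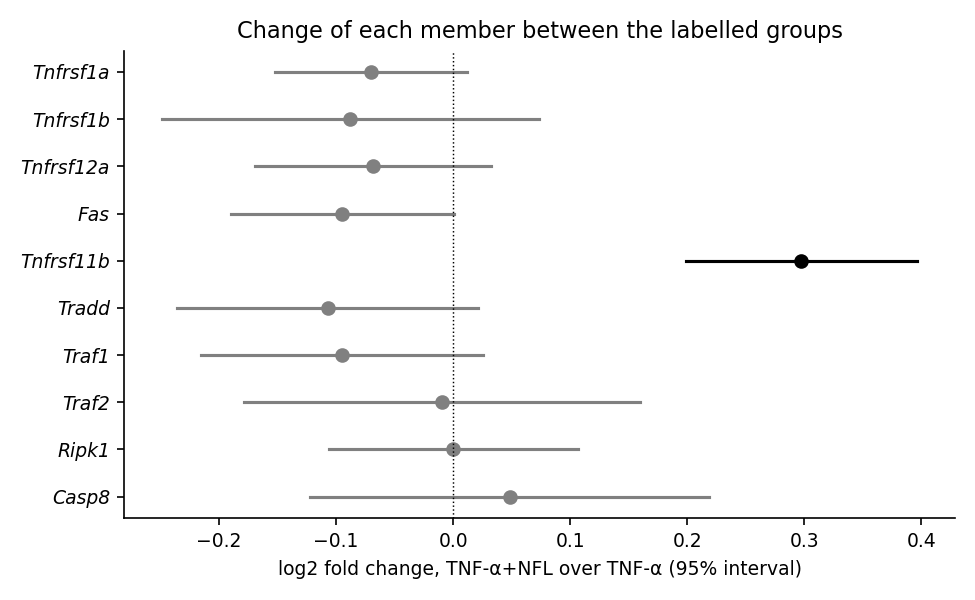
Log2 fold change (point) and 95% interval (line) of each of the 10 genes, TNF-α+NFL over TNF-α, with the gene at an adjusted p under 0.05 in black. The interval of Tnfrsf11b, from 0.20 to 0.40, lies above 0, and those of the other 9 genes include 0.

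Over the group, 1 of the 10 members was called higher and 0 were called lower by edgeR's test at an adjusted p under 0.05, against 0.408% and 0.204% of all tested genes. At an unadjusted p under 0.05 the counts by edgeR's test were again 1 and 0, against 5.66% and 5.45% of tested genes. Fas, below 0, passed that unadjusted threshold in 4 alternatives: limma-voom (unadjusted p 0.0488, adjusted p 0.45), the length trend removed (0.028 and 0.337), and the fits without TNF-α replicate 1 (0.0102 and 0.0978) or TNF-α+NFL replicate 2 (0.043 and 0.637). Tnfrsf12a, also below 0, passed it without TNF-α replicate 1 (unadjusted p 0.00378, adjusted p 0.0527). At an adjusted p under 0.05, no member was called lower by limma-voom or by limma on TPM or FPKM. DESeq2 gave an adjusted p for 5 of the 10 members and called 0 of these lower, and at an unadjusted p under 0.05 it had 1 member higher and 0 lower. Its independent filtering left Tnfrsf1b, Tradd, Traf1, Traf2 and Casp8 without an adjusted p. The log2 fold change was below 0 for 7 members, against 51.8% of tested genes, and the median over the 10 was -0.069, against -0.0035 over all tested genes. In CPM the groups did not overlap for Tnfrsf11b, higher, where 8.66% of tested genes did so, and for Tnfrsf1a, Tradd and Traf1, lower, where 8.17% did so. In TPM the groups of Tnfrsf11b again did not overlap, where 11.6% of tested genes were so separated and higher, while all 3 of the others overlapped and 0 members were separated and lower, against 5.06% of tested genes.

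Ratios within a library remove any scaling between libraries. 4 ratios of TPM were compared by exact permutation tests. The ratio of Tnfrsf1a to Tnfrsf1b was 10.8, 11.9 and 11.7 in TNF-α replicates 1, 2 and 3 and 12.5, 11.5 and 10.8 in TNF-α+NFL replicates 1, 2 and 3 (exact permutation p = 0.9, two-sided, and 1 after adjustment over the 4 ratios). TNFR1 RNA was thus 10.8 to 12.5 times TNFR2 RNA over the libraries. The ratio of Traf1 to Traf2 was 1.75, 1.52 and 1.48 against 1.41, 1.49 and 1.52 (exact permutation p = 0.5, adjusted 1). For the death branch, Cflar RNA was 7.16, 5.83 and 4.89 times that of Casp8 in the TNF-α libraries and 5.50, 6.54 and 5.43 times in the TNF-α+NFL libraries (exact permutation p = 1). Casp8 was 0.808, 0.753 and 0.970 times Fadd against 0.961, 0.850 and 0.785 times (exact permutation p = 0.8, adjusted 1). All 4 ratios overlapped between the groups.

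For 7 of the 10 members a promoter window was held in the RefSeq promoter sequences of GRCr8, from 250 bases before to 50 bases after the gene's start. Tnfrsf11b, Tradd and Casp8 had no entry. NF-κB and AP-1 are the factors through which TNF receptors mainly act on genes, so both motifs were searched on both strands, and the windows that hold a match are shown. The NF-κB consensus was found in 1 of the 7 windows, that of Fas, and in 7.51% of the 33469 promoter windows. The AP-1 motif TGACTCA was found in those of Traf1 and Tnfrsf1b, and in 4.63% of all windows. No overlap between the 2 motifs occurred in these windows. A match is a description of letters and not a binding site. Capitals mark the NF-κB match in Fas (chr1:241211905-241212204, plus strand) and the AP-1 match in Traf1 (chr3:38635721-38636020, minus strand) and Tnfrsf1b (chr5:162387362-162387661, minus strand, where the match reads as the reverse complement), each printed 5′ to 3′ along its gene.
Fas: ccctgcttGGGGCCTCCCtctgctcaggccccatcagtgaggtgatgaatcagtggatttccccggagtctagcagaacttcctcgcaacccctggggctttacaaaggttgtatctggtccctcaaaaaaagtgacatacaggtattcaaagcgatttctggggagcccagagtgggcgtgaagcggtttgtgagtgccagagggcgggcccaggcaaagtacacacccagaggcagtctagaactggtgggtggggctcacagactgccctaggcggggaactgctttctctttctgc
Traf1: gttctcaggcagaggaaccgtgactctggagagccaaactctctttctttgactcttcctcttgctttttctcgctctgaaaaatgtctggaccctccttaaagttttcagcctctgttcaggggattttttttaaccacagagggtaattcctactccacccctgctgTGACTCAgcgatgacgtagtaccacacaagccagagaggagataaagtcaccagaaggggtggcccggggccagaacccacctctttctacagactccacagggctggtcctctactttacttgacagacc
Tnfrsf1b: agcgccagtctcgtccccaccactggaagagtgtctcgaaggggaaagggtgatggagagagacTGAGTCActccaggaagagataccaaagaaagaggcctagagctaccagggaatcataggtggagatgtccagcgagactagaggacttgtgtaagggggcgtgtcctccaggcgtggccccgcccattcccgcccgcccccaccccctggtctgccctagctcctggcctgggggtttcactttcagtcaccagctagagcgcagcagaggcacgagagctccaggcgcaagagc
The 3 genes shown had log2 fold changes of -0.095, -0.095 and -0.088, none past the test.

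The other ligands, receptors, adaptors and enzymes of the pathway were followed as a list of 104 symbols, of which 98 were in the table and 81 were tested. By edgeR's test 0 of these 81 were called in either direction, against 0.611% of all tested genes, and none was called by limma-voom or by limma on TPM or FPKM. DESeq2 gave an adjusted p for 38 of the 81 and called 0 of these, with 1 gene lower and 0 higher at an unadjusted p under 0.05 over the 81. At an unadjusted p under 0.05 there were 4 higher and 4 lower, that is 8 of 81, against 11.1% of all genes in the test. The list had 38 log2 fold changes above 0 and 43 below, with a median of -0.0032.

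The ligand genes ranged from near 0 to well above the median gene. Tnf itself had 7, 9 and 9 estimated counts in TNF-α replicates 1, 2 and 3 and 7, 6 and 13 in TNF-α+NFL replicates 1, 2 and 3, so RNA for the ligand applied in the medium was near the floor in both groups. Faslg, the gene of Fas ligand, had 3 to 8 estimated counts per library. Of the 7 ligands that could be tested, Tnfsf12, which encodes the Fn14 ligand TWEAK, averaged 53.2 ± 1.24 TPM with TNF-α alone and 54.2 ± 1.21 TPM with NFL (SD, n = 3 each). In CPM its means were 41.8 ± 1.35 and 41.7 ± 1.03 in that order, with a log2 fold change on the counts of -0.0054 (95% interval -0.11 to 0.10, adjusted p = 0.983), so the sign differed between the scales. Tnfsf13, the gene of the B-cell ligand APRIL, was at 20.6 and 21.9 TPM on average. Tnfsf18, the GITR ligand gene, had the smallest p of the ligands, with a log2 fold change of 0.24 (adjusted p = 0.409) and overlapping groups. Eda, the ectodysplasin gene, had one of -0.27 (95% interval -0.80 to 0.26, adjusted p = 0.757) at 16 to 27 estimated counts.

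Of the other receptors, 11 of 21 could be tested. Tnfrsf9, which encodes the costimulatory receptor 4-1BB, was at 20.8, 24.1 and 21.6 CPM in TNF-α replicates 1, 2 and 3 and 18.3, 18.3 and 19.6 CPM in TNF-α+NFL replicates 1, 2 and 3. The TNF-α+NFL libraries all lay lower. Its log2 fold change was -0.24 (95% interval -0.40 to -0.088, adjusted p = 0.193 by edgeR's test), the smallest p in the list, and the adjusted p was 0.0232 without TNF-α replicate 1, in a range up to 0.595 over the fits that left out 1 library. Tnfrsf26 came next among the receptors, with a log2 fold change of -0.15 (adjusted p = 0.561) and overlapping groups.

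Among the adaptors, Tank, which links TRAF proteins to the kinases TBK1 and IKKε, had a log2 fold change of 0.12 (adjusted p = 0.353) and groups that did not overlap. Cradd, a death-domain adaptor of caspase 2, had one of -0.62 (95% interval -1.20 to -0.034, adjusted p = 0.417) at only 12 to 25 estimated counts. Fadd, the adaptor that joins death receptors to caspase 8, was at 4.50 ± 0.334 CPM (SD, n = 3) and 4.56 ± 0.504 CPM (SD, n = 3), with a log2 fold change of 0.019 (95% interval -0.27 to 0.31, adjusted p = 0.978). The depth of Fadd, 82 to 101 counts, left that wide interval.

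For the ubiquitin enzymes of the receptor complex, Sharpin, a subunit of the linear ubiquitin ligase LUBAC, had a log2 fold change of -0.14 (adjusted p = 0.333), and Otud7b, a deubiquitinase, one of 0.12 (adjusted p = 0.395). Tnfaip3, the gene of the feedback inhibitor A20, was at 86.1 ± 4.86 CPM (SD, n = 3) and 84.7 ± 2.62 CPM (SD, n = 3), with a log2 fold change of -0.024 (95% interval -0.13 to 0.083, adjusted p = 0.921). Birc2 and Birc3, which encode cIAP1 and cIAP2, had log2 fold changes of 0.013 (adjusted p = 0.961) and -0.098 (adjusted p = 0.569). Without TNF-α replicate 1, Sharpin had a log2 fold change of -0.16 and an adjusted p of 0.0493, and the highest adjusted p over the fits that left out 1 library was 0.747. The estimated counts of Otud7b, Birc2 and Birc3 were not whole in 6 of 6 libraries.

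All 14 genes of the kinase complexes were tested, and log2 fold changes ran from -0.039 to 0.092. Tab2 and Tab1, adaptors of the kinase TAK1, had 0.056 (adjusted p = 0.707) and 0.079 (adjusted p = 0.758). In the death branch, Cflar was at 135 ± 9.90 CPM (SD, n = 3) and 144 ± 1.88 CPM (SD, n = 3), with a log2 fold change of 0.095 (95% interval -0.013 to 0.20, adjusted p = 0.528). Without TNF-α replicate 1 this was 0.16 with an adjusted p of 0.0104, and the highest adjusted p over the fits that left out 1 library was 0.808. Faim, a gene named for inhibition of Fas-mediated apoptosis, had a log2 fold change on the counts of 0.30 (95% interval -0.053 to 0.66, adjusted p = 0.547). In TPM the Faim means lay the other way, at 13.1 ± 1.22 with TNF-α and 12.25 ± 2.18 with NFL (SD, n = 3 each). Of the proteases that release these ligands and receptors from membranes, Adam17, which encodes the TNF-α converting enzyme, was at 276 ± 3.49 CPM (SD, n = 3) and 287 ± 1.18 CPM (SD, n = 3), with all TNF-α+NFL libraries higher and a log2 fold change of 0.055 (95% interval -0.022 to 0.13, adjusted p = 0.626). Sppl2a, an intramembrane protease gene, had a log2 fold change of 0.097 (adjusted p = 0.405). Estimated counts of Cflar, Faim and Sppl2a were also not whole in 6 of 6 libraries.

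Genes with a profile most like that of 2 members were found as the smallest root mean square difference of log2 CPM, each gene centred on its own mean over the 6 libraries. Nearest to Tnfrsf11b were Cd38 at 0.028, Rasl11b at 0.032 and Hspb7 at 0.036, where Tnfrsf11b itself varied by 0.16 around its mean. Nearest to Fas, the member with the smallest p among those below 0, were Fubp1 at 0.015, Fgf7 at 0.015 and Dzip1 at 0.016, where Fas varied by 0.059.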

How the data were processed

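RNA of cultured rat chondrocytes was purified on oligo(dT) beads and sequenced as single-end reads on a BGI platform. The submitters' processing notes name HISAT2 2.0.4, Bowtie2 2.2.5, RSEM 1.2.12 and the build Rnor_6.0, with no role for each. The annotation and strand setting are not given in the sources used here. Deposited by the authors were, for every gene, estimated counts that were not normalized, FPKM values, scaled to transcript length and mapped reads, and TPM values, scaled to transcript length and a common sum. Sequences are from GRCr8, another build, so no gene coordinates in the files' build are given.

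After rounding of the estimated counts, the groups were compared by the robust quasi-likelihood test of edgeR (version 4.0.16, R 4.3.3), two-sided, with TMM factors and the filterByExpr filter, with Benjamini-Hochberg adjustment over the 13250 genes tested. Alternatives used DESeq2 1.42.0 and limma 3.58.1, pseudocounts of 1 and 0.1, other filters, removal of each library's trend with transcript length, the replicate number as a block, and the removal of each library. Each standard error is the log2 fold change over the square root of F, and 95% intervals use it. The fit was tested on simulated data, in 5 draws with 200 changed genes. It recovered 43% of these at a log2 change of 0.3 and 89.8% at a log2 change of 1. The 10 members and the pathway list were chosen with earlier results of these data known. The genes named were the members and, in each role of the pathway list, the 2 with the smallest p, with Tnf, Tnfsf10, Tnfsf11, Tnfsf12, Faslg, Cflar, Fadd, Tnfaip3, Birc2 and Birc3, and the 3 genes most alike in profile to the member with the smallest p in each direction. Tnfrsf11a, Tnfrsf10b and Tnfsf13 were added after their values were seen. Groups of 3 libraries limit precision, and intervals cover only the spread between them.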

Additional observations from a re-analysis of the deposited data

How the results depend on the processing

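The log2 fold change of Tnfrsf11b was above 0 under each of its 16 alternatives and past an adjusted p of 0.05 under 11 of them. The number of members called higher was 0 on log2(FPKM + 1), where the adjusted p of Tnfrsf11b was 0.0947, and ran from 0 to 1 over the fits that left out 1 library. No member was called lower at an adjusted p under 0.05 under any alternative, where DESeq2 gave an adjusted p for only 5 of the 10. The number of members whose groups did not overlap and lay lower went from 3 in CPM to 0 in TPM, a setting chosen after seeing the data. Of the pathway genes, 4 higher and 4 lower were found at an unadjusted p under 0.05 by edgeR's test. At an adjusted p under 0.05 there were 0 to 1 higher and 0 to 2 lower over the fits that left out 1 library. The 3 calls arose without TNF-α replicate 1. In that fit 460 genes were called higher and 470 lower of 13409 tested, against 54 and 27 of 13250 with all libraries. The sign of Traf2 turned with limma on log2(TPM + 1) and log2(TPM + 0.1), at 0.022 and 0.023, with the length trend removed, at 0.0039, and over the fits that left out 1 library, from -0.078 to 0.076. That of Ripk1 turned with no filter on low counts, at -0.00027, with the length trend removed, at -0.028, and over the fits that left out 1 library, from -0.025 to 0.023. The cause was not tested.

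Under a replicate block, which takes the shared numbers as pairs, 1 member was called higher, Tnfrsf11b at a log2 fold change of 0.30 with an adjusted p of 0.0209 by edgeR's test, and 25 genes were called higher and 9 lower over the whole table. On log2(FPKM + 1) these were 3 and 3. Deviations of same-numbered libraries correlated at 0.030, -0.024 and 0.1004, and 3 of 6 libraries correlated best with their own number. So few libraries cannot show whether equal numbers mark a shared animal, culture or batch. With 3 libraries a group, members at low depth such as Casp8, at 237 to 272 estimated counts, and Tnfrsf1b had the widest intervals together with Traf2.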
